A study of Homo sapiens with 16 samples.

Results

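The comparison described here is electrical stimulation (ES) of SH-SY5Y cells on P(rGO), a film of polymer and reduced graphene oxide. These cells are an established line from a human neuroblastoma and serve as a model of noradrenergic nerve cells. The libraries were chosen by their labels: 2 from cells on P(rGO) with stimulation and 2 from cells on P(rGO) without it, 4 of the 16 libraries in the series. All 4 came from cells differentiated on films coated with poly-L-lysine and laminin. The cells stood for 2 days in growth medium, and serum was then lowered in steps, to 5% at day 2, to 2.5% at day 3 and to 1% at day 5. Retinoic acid at 10 µM was present from day 3 to day 6, and brain-derived neurotrophic factor (BDNF) at 50 ng/mL for the 4 days that followed. Stimulated cells also received a square wave potential of 0.1 V peak to peak at 1 Hz for 8 h per day over those last 4 days, and the other group received none. The same pair of groups on PEDOT:PSS (a conducting polymer blend) and on ITO (indium tin oxide), 4 libraries each, served for comparison. The question was what stimulation altered in the transcriptome on this film.

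Retinoic acid stops the division of SH-SY5Y cells and BDNF, through its receptor and the kinase ERK, favours neurite growth and survival. Genes of mitosis are transcribed as a group late in the cell cycle and are shut off together in resting cells, through promoter elements that include the CHR (cell cycle genes homology region) and CCAAT boxes. Depolarisation of nerve cells opens calcium channels and switches on immediate early genes such as FOS, EGR1 and ARC. Metallothioneins bind zinc and copper, and their genes are switched on by the metal sensor MTF1 at metal response elements.

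Between 17146033 and 19431872 reads per P(rGO) library were assigned to genes, and 18081 of 69222 gene rows had enough counts to be tested. Markers of noradrenergic identity were present in all 4 libraries: GATA3 lay between 196 and 236 CPM (reads of a gene scaled to a common library size) and ISL1 between 287 and 322, while PHOX2A and DBH stood lower with stimulation, as given with the catecholamine genes. TH, the tyrosine hydroxylase that starts catecholamine synthesis, was low, between 0.744 and 9.15 CPM. The labels do not say that the replicates were separate cultures. P-values and standard errors here thus reflect only how much the 16 libraries of the series vary, pooled over all groups. That variation may be technical. Stimulated replicate 1 stood apart from the other film libraries: on their first principal component, with 24% of the variance, it lay at -29.1 and the other 11 between -16.03 and 17.1. The biological coefficient of variation was 18.2% between the stimulated replicates and 9.1% between the unstimulated. It was 36.2% between untreated and 18.1% between differentiated replicates on plates, which also enter the standard errors given here. Reads placed in no gene made up 10.0% and 8.95% of uniquely placed reads in the stimulated libraries and 7.28% and 7.80% in the unstimulated, and 26286 and 25259 genes were detected against 24465 and 24563. These 2 measures moved with stimulation across the whole comparison, and their part in the results was not tested.

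In the main fit, over all 16 libraries, stimulation on P(rGO) gave no gene past the threshold. Of 18081 genes, 0 were called at an adjusted p of 0.05 with edgeR's quasi-likelihood test (0%). The smallest adjusted p was 0.292, for ENC1. At an unadjusted p under 0.05 there were 986 genes, 538 lower with stimulation (2.98%) and 448 higher (2.48%). Where nothing differs, a share of 0.05 of all genes is expected under that level, and this count is near it. DESeq2 called 14 genes on the same counts, 9 lower and 5 higher. The 9 lower were ENC1, SEMA3C, ACTB, INHBA, SPRY2, SLIT2, LMNTD1, ID4 and TMSB4X, and the 5 higher were TLE6, CTSF, CBFA2T2, FLRT1 and NXPH3. With edgeR fitted to the 12 film libraries alone, CTSF and TMSB4X passed, each with an adjusted p of 0.00314. Without the low-count filter edgeR called 168 genes, 119 lower and 49 higher. The calls thus differed between tools and sets of genes and libraries, and every difference below is given as a value that did not pass edgeR's test over all genes. Both stimulated libraries lay below both unstimulated ones for 3694 genes (20.4%) and above them for 3265 (18.1%). The median log2 fold change of all genes was -0.002, and 50.3% of genes were below 0. In a bulk library fewer cells of a type and less RNA of a gene per cell cannot be told apart.

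**Figure D1:**
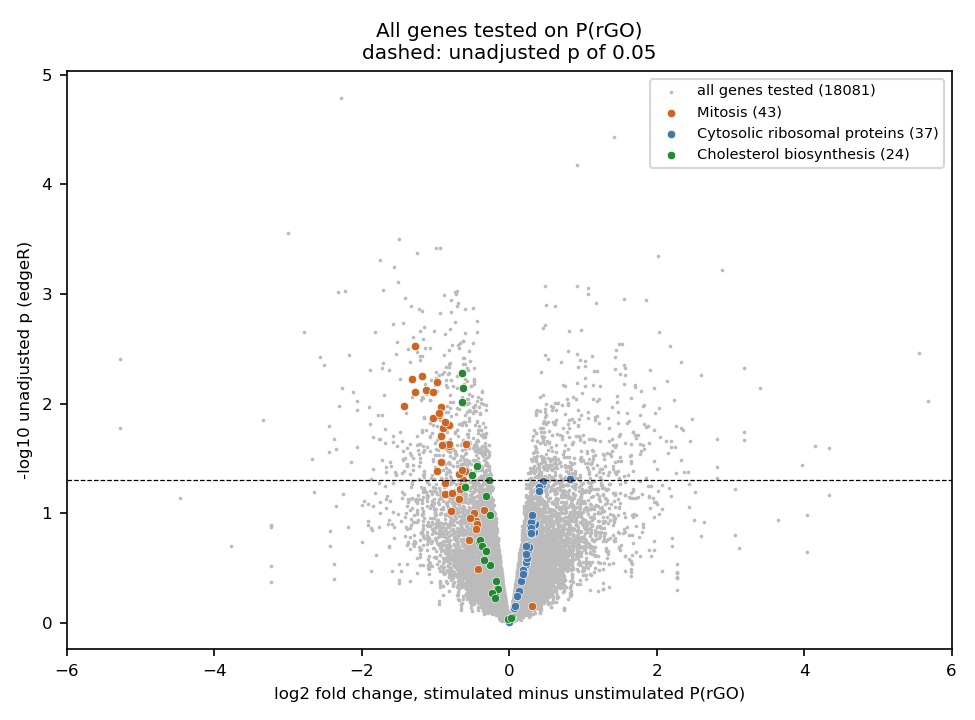
Log2 fold change between stimulated and unstimulated P(rGO) (x axis) against -log10 of the unadjusted p from edgeR (y axis) for the 18081 genes tested. The mitosis genes (43) lie to the left with 1 exception, the cholesterol genes (24) mostly to the left, and the ribosomal protein genes (37) to the right with small values.

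Among genes lower with stimulation, the smallest p-values belonged to ENC1, a kelch-repeat protein of nerve cells that binds actin (ENSG00000171617.15, chromosome 5 from 74627406 to 74641424 in GRCh38). It stood at 141 and 196 CPM without stimulation and at 31.2 and 37.9 CPM with it. The groups were well apart, with a log2 fold change of -2.28 (SE 0.36, adjusted p = 0.292 by edgeR). SEMA3C, a secreted guidance cue of the semaphorin family, stood at 103 and 88.6 CPM without stimulation and at 47.6 and 20.1 CPM with it. Both stimulated libraries were low and replicate 2 the lower (log2 fold change -1.50, SE 0.32, edgeR adjusted p = 0.667). INHBA, which encodes the subunit of activin A, stood at 119 and 132 CPM without stimulation and at 46.2 and 28.5 CPM with it. The log2 fold change of INHBA was -1.75 (SE 0.39). SLIT2, a secreted ligand of ROBO receptors that repels axons, stood at 11.6 and 14.3 CPM without stimulation and at 4.65 and 3.24 CPM with it (log2 fold change -1.71, SE 0.41). ID4, which blocks proneural helix-loop-helix factors, stood at 25.6 and 27.1 CPM against 13.8 and 8.45 CPM (log2 fold change -1.24, SE 0.27).

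TMSB4X, the thymosin that holds actin monomers, stood at 249 and 263 CPM without stimulation and at 139 and 129 CPM with it. Its replicates were close within each group, and the log2 fold change was -0.93 (SE 0.20). ACTB, β-actin itself, stood at 2628 and 2745 CPM without stimulation and at 1686 and 1644 CPM with it (log2 fold change -0.69, SE 0.17). It was chosen for mention after its values were seen. ACTB and TMSB4X have many near-identical pseudogene copies, so their counts depend on how reads with several positions were treated. LMNTD1 stood at 10.6 and 12.5 CPM against 4.02 and 3.83 CPM, and PROS1, the anticoagulant protein S, at 44.8 and 47.0 CPM against 26.2 and 29.02 CPM (log2 fold changes -1.55 and -0.73).

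Of the genes higher with stimulation, TLE6, a Groucho-family co-repressor (chromosome 19 from 2977446 to 2995184), had the smallest p. It stood at 4.52 and 3.70 CPM without stimulation and at 9.25 and 12.8 CPM with it (log2 fold change 1.42, SE 0.24, edgeR adjusted p = 0.338). CTSF, the lysosomal protease cathepsin F (chromosome 11 from 66563463 to 66568841), stood at 55.2 and 51.3 CPM without stimulation and at 102 and 99.2 CPM with it. CTSF had replicates within a few CPM of each other on either side, with a log2 fold change of 0.92 (SE 0.16, edgeR adjusted p = 0.404). CBFA2T2, a co-repressor of the MTG family, stood at 132 and 139 CPM against 178 and 203 CPM (log2 fold change 0.49, SE 0.12).

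NXPH3, a neurexophilin that binds neurexins, stood at 2.35 and 1.16 CPM without stimulation and at 6.74 and 7.49 CPM with it (log2 fold change 2.02, SE 0.44). FLRT1, an adhesion protein with leucine-rich repeats, stood at 1.55 and 2.55 CPM against 7.47 and 7.33 CPM (log2 fold change 1.85, SE 0.45). NTNG2, a membrane-anchored netrin, stood at 35.3 and 54.2 CPM against 72.4 and 130 CPM (log2 fold change 1.17, SE 0.29). For these genes the groups did not overlap, but NTNG2 varied within each group by more than the gap between the groups. SLIT1, a relative of SLIT2, stood at 38.2 and 40.1 CPM against 54.9 and 93.3 CPM (log2 fold change 0.92, SE 0.22), so the 2 ligands of the same receptors had values on opposite sides. RADIL, an effector of the GTPase Rap, stood at 31.7 and 28.9 CPM against 41.8 and 44.1 CPM, and ANKS3 at 40.6 and 41.3 CPM against 66.3 and 60.2 CPM.

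**Figure D2:**
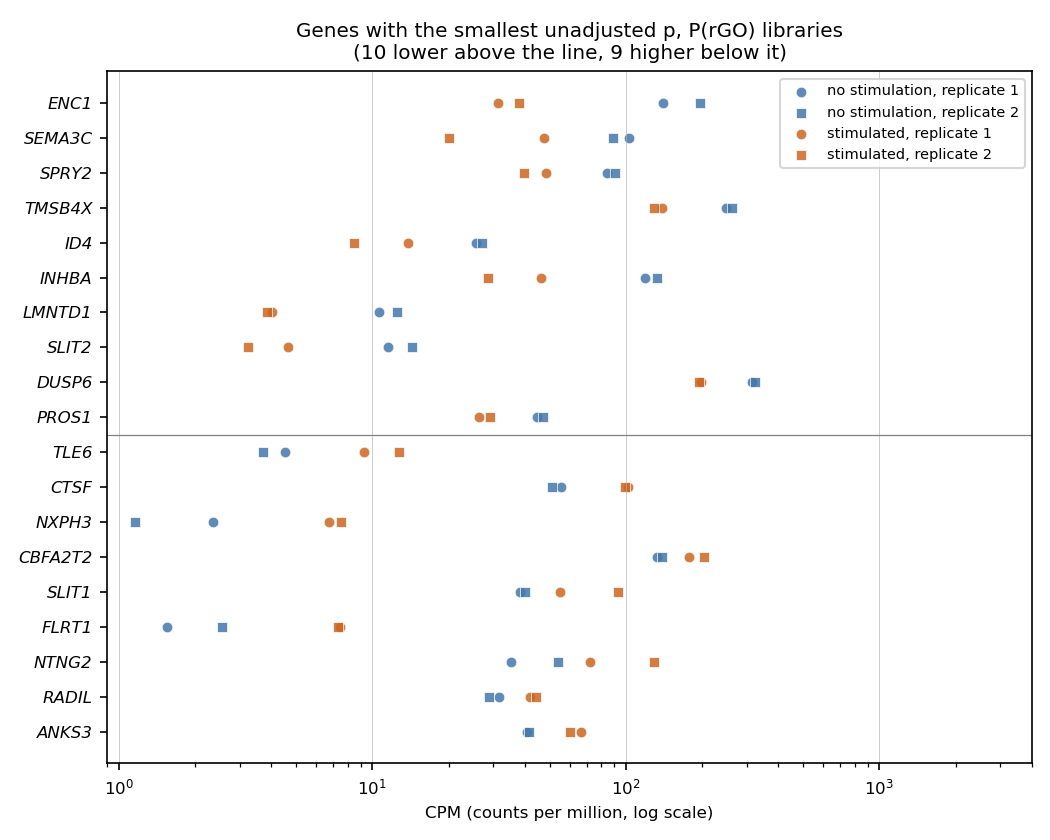
CPM (x axis, log scale) of 10 lower and 9 higher genes with the smallest unadjusted p values in each P(rGO) library. Points are single libraries, blue without and orange with stimulation, circles for replicate 1 and squares for replicate 2. No gene shown has overlapping groups, which the choice of genes required.

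Mitosis genes were the list with the lowest median. Of 43 tested genes of spindle, chromosome segregation and cytokinesis, 0 were called, 42 had a log2 fold change below 0, and in 42 both stimulated libraries lay below both unstimulated ones, a share of 97.7% beside 20.4% of all genes. The list's median log2 fold change was -0.81, beside -0.002 for all genes, and 25 of its genes had an unadjusted p under 0.05. Summed over the list, the level was 1228 and 1270 CPM without stimulation and 663 and 793 CPM with it. Leaving out any 1 of the 4 libraries kept the list's median between -0.94 and -0.66.

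The promoters of 3 of these genes are printed because the list lay lower as a group. They are RefSeq windows on GRCh38.p14 from 250 bases before to 50 bases after the gene's start, written on the gene's strand. Capitals mark CHR letters (TTTGAA or TTCGAA, or the reverse complement) and CCAAT (or ATTGG). In MKI67 the CHR and CCAAT letters nearest the start overlap. The windows lie at chr10:128126374-128126673 on the minus strand for MKI67, chr17:40417847-40418146 on the minus strand for TOP2A and chr2:26785806-26786105 on the plus strand for CENPA.
MKI67: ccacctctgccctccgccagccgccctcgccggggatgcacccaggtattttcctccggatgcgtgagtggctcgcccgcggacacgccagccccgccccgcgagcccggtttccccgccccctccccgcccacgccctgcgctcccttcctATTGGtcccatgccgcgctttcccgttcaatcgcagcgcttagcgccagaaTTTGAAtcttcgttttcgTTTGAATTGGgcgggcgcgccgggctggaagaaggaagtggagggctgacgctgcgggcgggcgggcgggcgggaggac
TOP2A: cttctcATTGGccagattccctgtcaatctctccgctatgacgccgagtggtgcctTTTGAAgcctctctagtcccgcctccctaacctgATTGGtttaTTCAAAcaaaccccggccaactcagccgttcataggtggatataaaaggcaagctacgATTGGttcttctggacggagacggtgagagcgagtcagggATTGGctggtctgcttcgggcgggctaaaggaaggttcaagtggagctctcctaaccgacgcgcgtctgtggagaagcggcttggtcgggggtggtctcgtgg
CENPA: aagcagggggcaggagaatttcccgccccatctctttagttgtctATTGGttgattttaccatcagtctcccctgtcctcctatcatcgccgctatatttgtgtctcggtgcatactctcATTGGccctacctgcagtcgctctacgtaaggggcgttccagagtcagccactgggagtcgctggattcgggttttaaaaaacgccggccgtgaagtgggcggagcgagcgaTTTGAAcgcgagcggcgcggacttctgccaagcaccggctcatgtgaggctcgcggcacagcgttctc

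CHR letters were present in 32 of 44 windows of the tested mitosis genes (72.7%; 37 genes had a window, some with several starts), in 16.4% of 35116 windows of all genes and in 2 of 51 windows of the S phase list (3.92%). CCAAT letters were present in 35 of the 44 windows (79.5%), in 34.6% of all windows and in 31 of 51 S phase windows (60.8%). Among genes outside the mitosis list, 1760 tested genes had CHR letters and a median log2 fold change of -0.041, and both stimulated libraries were the lower for 25.1% of them. For the 9811 tested genes with windows but no CHR letters the median was -0.004 and that share 21.2%. Mitosis genes with and without CHR letters had like values: the median was -0.81 for 29 genes and -0.84 for 8. The letters are a description of these windows and show nothing of what was bound there.

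MKI67, the proliferation antigen Ki-67, stood at 73.3 and 106 CPM without stimulation and at 30.2 and 44.0 CPM with it, a log2 fold change of -1.27 (SE 0.35, edgeR adjusted p = 0.728). CENPA, the histone that marks centromeres, stood at 9.39 and 8.74 CPM against 3.397 and 3.88 CPM (log2 fold change -1.32, SE 0.41). UBE2C, the ubiquitin-conjugating enzyme of the anaphase-promoting complex, stood at 18.5 and 15.6 CPM against 6.58 and 8.50 CPM (log2 fold change -1.18, SE 0.36). In all 3 both stimulated libraries lay below both unstimulated ones, and for MKI67 the unstimulated replicates differed by more than the gap between the groups. FOXM1, the transcription factor that drives mitotic genes, stood at 70.9 and 59.7 CPM against 28.6 and 37.6 CPM (log2 fold change -0.98, SE 0.31). KIF20A, a kinesin of cytokinesis, had the lowest value of the list, 14.2 and 15.7 CPM against 4.70 and 6.43 CPM (log2 fold change -1.42, SE 0.48). TOP2A, the topoisomerase that untangles sister chromatids, stood at 134 and 145 CPM against 60.8 and 86.0 CPM (log2 fold change -0.93, SE 0.35). The kinases CDK1 and PLK1 and cyclin CCNB1 had log2 fold changes of -0.60, -0.93 and -0.63, also with groups that did not overlap.

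Genes of DNA replication and S phase lay lower by less. Of 44 tested, 35 were below 0 and 20 had both stimulated libraries below both unstimulated ones (45.5%, beside 20.4% of all genes). The median log2 fold change was -0.22, and -0.13 without unstimulated replicate 1. RRM2, a subunit of ribonucleotide reductase, stood at 37.0 and 36.2 CPM without stimulation and at 17.4 and 20.5 CPM with it (log2 fold change -0.95, SE 0.49). E2F8, a repressor of the E2F family, stood at 3.09 and 4.22 CPM against 1.62 and 1.86 CPM (log2 fold change -1.07, SE 0.43). PCNA, the sliding clamp of DNA polymerase, had a log2 fold change of -0.49 (SE 0.47) and ORC1 of the origin recognition complex -0.50 (SE 0.28). The helicase subunit MCM2 overlapped between groups at -0.11 (SE 0.30). In the untreated plate libraries, which enter these errors, RRM2 stood at 192 and 49.4 CPM and PCNA at 274 and 56.8 CPM. The group at the G1 stage showed no common direction, with 11 of 30 genes below 0 and a median of 0.03 (-0.04 without unstimulated replicate 2). Cyclin D1 (CCND1) stood at 911 and 894 CPM against 861 and 975 CPM, and the inhibitor CDKN1B at 79.9 and 103 CPM against 83.5 and 112 CPM, both with overlapping groups. The inhibitor CDKN1A stood at 231 and 215 CPM without stimulation and at 174 and 117 CPM with it (log2 fold change -0.62, SE 0.27), and CDKN2C had a log2 fold change of -0.48 (SE 0.19). CDKN1A is also a target of p53, and 17 of 22 tested p53 targets were below 0 (median -0.18), with PLK2 lowest at 108 and 117 CPM against 49.8 and 57.1 CPM.

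**Figure D3:**
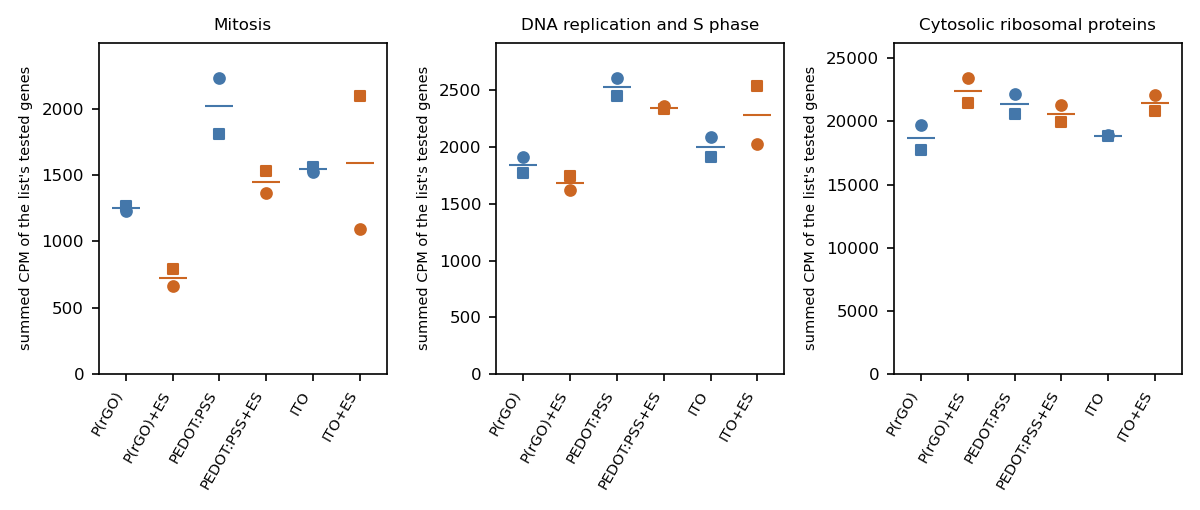
Summed CPM (y axis, from 0) of the tested genes of 3 lists in each library of the 6 film groups. Points are libraries, circles for replicate 1 and squares for replicate 2, bars are the mean of the pair, orange with stimulation (ES) and blue without. The mitosis genes are lowest in the stimulated P(rGO) libraries, at 663 and 793 CPM, and the stimulated ITO replicates are far apart, at 1090 and 2093 CPM.

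Genes that ERK signalling switches on to limit itself lay mostly lower with stimulation. Of 10 tested DUSP, SPRY and SPRED genes, 8 were below 0, with a median of -0.37. In 6 of the 10 both stimulated libraries were the lower, against 20.4% of all genes. SPRY2, an inhibitor of receptor tyrosine kinase signalling, stood at 84.2 and 90.8 CPM without stimulation and at 48.5 and 39.8 CPM with it (log2 fold change -0.99, SE 0.21). DUSP6, the phosphatase of ERK, stood at 315 and 325 CPM against 199 and 194 CPM (log2 fold change -0.70, SE 0.17). Both genes were low in both stimulated libraries, and the edgeR adjusted p was 0.667 for each. SPRY1 and SPRY4 had log2 fold changes of -0.49 (SE 0.36) and -0.40 (SE 0.22). SHC1, the adaptor that links neurotrophin receptors to RAS, stood at 483 and 451 CPM against 387 and 341 CPM (log2 fold change -0.36, SE 0.15), and NTRK2, the receptor of BDNF, overlapped between groups (345 and 464 CPM against 288 and 496 CPM).

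Immediate early genes had no common direction. Over the 36 tested genes of the activity list, which includes the ERK feedback genes, 17 were below 0 and 19 above. The median was 0.05, and -0.35 without stimulated replicate 1. Of 13 FOS, JUN, EGR and NR4A family genes and ARC, 5 were below 0 and 8 above, with a median of 0.25. Stimulated replicate 1 was the highest of the 4 libraries for 8 of the 13, against 5416 of all 18081 genes. Stimulated replicate 2 was the lowest for 9 of them, against 4776 of all genes. JUN stood at 54.6 and 48.6 CPM without stimulation and at 153 and 55.2 CPM with it. FOS stood at 11.9 and 11.7 CPM against 34.1 and 10.9 CPM, and EGR1 at 274 and 242 CPM against 465 and 134 CPM. ARC, which acts at synapses after activity, stood at 19.1 and 15.9 CPM against 32.8 and 11.4 CPM. All 4 genes were high in stimulated replicate 1 alone, and EGR1, ARC and FOS in stimulated replicate 2 lay below both unstimulated libraries. Without replicate 1 the log2 fold changes of FOS, EGR1 and ARC were -0.12, -0.94 and -0.62. NPAS4, the activity-dependent factor of nerve cells, had 1 and 1 counts without stimulation and 9 and 5 with it, too few to be tested. BDNF itself lay between 0.261 and 0.957 CPM in the 4 libraries. Among the ITO libraries JUN, FOS, EGR1 and ARC were also highest in stimulated replicate 1. Among the PEDOT:PSS libraries this held, by smaller margins, for FOS, EGR1 and ARC but not for JUN.

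Metal-responsive genes were higher in stimulated replicate 1 and less so in replicate 2. Of 13 tested genes for metal handling, 7 were above 0, and 5 had both stimulated libraries above both unstimulated ones (38.5%, beside 18.1% of all genes). SLC30A1, the zinc exporter of the plasma membrane, stood at 43.7 and 39.7 CPM without stimulation and at 98.7 and 59.1 CPM with it (log2 fold change 0.92, SE 0.26, edgeR adjusted p = 0.728). The metallothionein MT2A stood at 5.84 and 2.14 CPM against 33.5 and 7.33 CPM (log2 fold change 2.35, SE 0.87), and MT1F at 1.83 and 1.16 CPM against 7.42 and 2.34 CPM (log2 fold change 1.70, SE 0.54). MT1E had 3 and 0 counts without stimulation and 60 and 3 with it, and MT1X 10 and 0 against 57 and 7. The metallothioneins share much of their sequence, so their counts are uncertain. On ITO the same split between replicates was seen: MT1E had 1 and 4 counts without stimulation and 41 and 2 with it, the high count again in replicate 1. On PEDOT:PSS MT1E had 2 and 0 counts without stimulation and 12 and 1 with it, but MT1X had 10 and 2 against 10 and 9.

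Promoters of MT2A, at chr16:56608334-56608633 on the plus strand, and SLC30A1, at chr1:211579112-211579411 on the minus strand, are shown because these genes were high together. They are RefSeq windows of the same build and length. Capitals mark the core letters of the metal response element (TGCACNC or TGCGCNC, or the reverse complement).
MT2A: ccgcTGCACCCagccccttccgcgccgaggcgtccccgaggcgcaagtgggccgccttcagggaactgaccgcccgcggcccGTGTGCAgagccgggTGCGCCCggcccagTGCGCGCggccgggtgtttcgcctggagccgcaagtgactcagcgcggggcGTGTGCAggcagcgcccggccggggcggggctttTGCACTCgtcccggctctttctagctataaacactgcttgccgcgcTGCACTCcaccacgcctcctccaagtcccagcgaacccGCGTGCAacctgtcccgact
SLC30A1: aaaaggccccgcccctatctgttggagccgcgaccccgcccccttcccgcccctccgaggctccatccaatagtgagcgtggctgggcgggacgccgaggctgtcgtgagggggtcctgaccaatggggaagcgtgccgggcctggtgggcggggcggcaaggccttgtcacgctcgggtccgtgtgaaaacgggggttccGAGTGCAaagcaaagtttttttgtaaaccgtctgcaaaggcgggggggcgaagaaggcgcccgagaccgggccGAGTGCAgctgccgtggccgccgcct

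MT2A had 8 such matches and SLC30A1 had 2, and at least 1 match was present in 29.6% of the 35116 windows of all genes and at least 2 in 8.6%. In the 51 windows of the S phase list these shares were 52.9% and 11.8%, and in the 44 of the mitosis list 43.2% and 13.6%. Other cation carriers of the list, such as the SLC39A importers, had values near 0 or below it. The 5 genes of the list with both stimulated libraries higher were MT2A, MT1F, SLC30A1 and members not named here.

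Chaperones of the endoplasmic reticulum lay lower, and targets of the stress factor ATF4 lay higher mostly in stimulated replicate 1. The list that holds both had a median near 0 (0.04, 27 tested genes), and of -0.28 without stimulated replicate 1. Of 11 chaperones and foldases, 11 were below 0, with a median of -0.45. In 9 of the 11 both stimulated libraries were the lower, against 20.4% of all genes. HSPA5, the chaperone BiP, stood at 285 and 284 CPM without stimulation and at 152 and 172 CPM with it (log2 fold change -0.82, SE 0.23, edgeR adjusted p = 0.728). CALR, calreticulin, stood at 394 and 417 CPM against 255 and 252 CPM (log2 fold change -0.68, SE 0.19). PDIA4, a disulfide isomerase, and HSP90B1, the chaperone GRP94, had log2 fold changes of -0.60 (SE 0.18) and -0.49 (SE 0.17). Unlike the immediate early genes, these chaperones were low in both stimulated replicates.

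Of 13 genes in the ATF4 arm, 12 were above 0, but in only 3 were both stimulated libraries the higher, beside 18.1% of all genes. In 12 the highest of the 4 libraries was stimulated replicate 1, against 5416 of all 18081 genes. ASNS, asparagine synthetase, stood at 3.26 and 2.60 CPM without stimulation and at 14.3 and 4.94 CPM with it (log2 fold change 1.71, SE 0.54). SLC3A2, the heavy chain of amino acid transporters, stood at 95.6 and 65.7 CPM against 222 and 90.6 CPM, and DDIT3, the factor CHOP, at 19.9 and 11.6 CPM against 51.3 and 12.97 CPM. The last 2 overlapped between groups because stimulated replicate 2 lay among the unstimulated libraries. ATF4 stood at 169 and 146 CPM against 266 and 172 CPM (log2 fold change 0.47, SE 0.25). On ITO a like split was seen for DDIT3, at 15.4 and 10.4 CPM without stimulation and at 46.55 and 9.73 CPM with it. SLC3A2 on ITO stood at 79.0 and 71.5 CPM against 155 and 62.4 CPM.

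Cytosolic heat shock genes had a median of 0.08 over 16 tested, which was -0.03 without stimulated replicate 1. HSPA6, a strictly inducible HSP70, stood at 1.43 and 0.637 CPM without stimulation and at 5.80 and 5.85 CPM with it (log2 fold change 2.48, SE 0.88). Its stimulated libraries were close to each other, and its log2 fold changes on PEDOT:PSS and ITO were 2.10 (SE 0.84) and 2.29 (SE 0.80). On ITO it stood at 4.20 and 1.69 CPM without stimulation and at 26.6 and 2.30 CPM with it, so the value there rests on stimulated replicate 1. Its co-chaperone DNAJB1 stood at 140 and 123 CPM against 218 and 142 CPM. HSPA1A and HSPA1B are listed at 0 in all 16 libraries, as are LDHA and FBL, which every cell uses, so these zeros cannot be read as absence. Of 29 oxidative stress genes 19 were below 0, with a median of -0.08 that was -0.25 without stimulated replicate 1 and 0.03 without unstimulated replicate 1. NQO1 stood at 40.4 and 27.4 CPM against 33.6 and 28.1 CPM and HMOX1 at 2.52 and 1.56 CPM against 3.29 and 2.07 CPM.

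**Figure D4:**
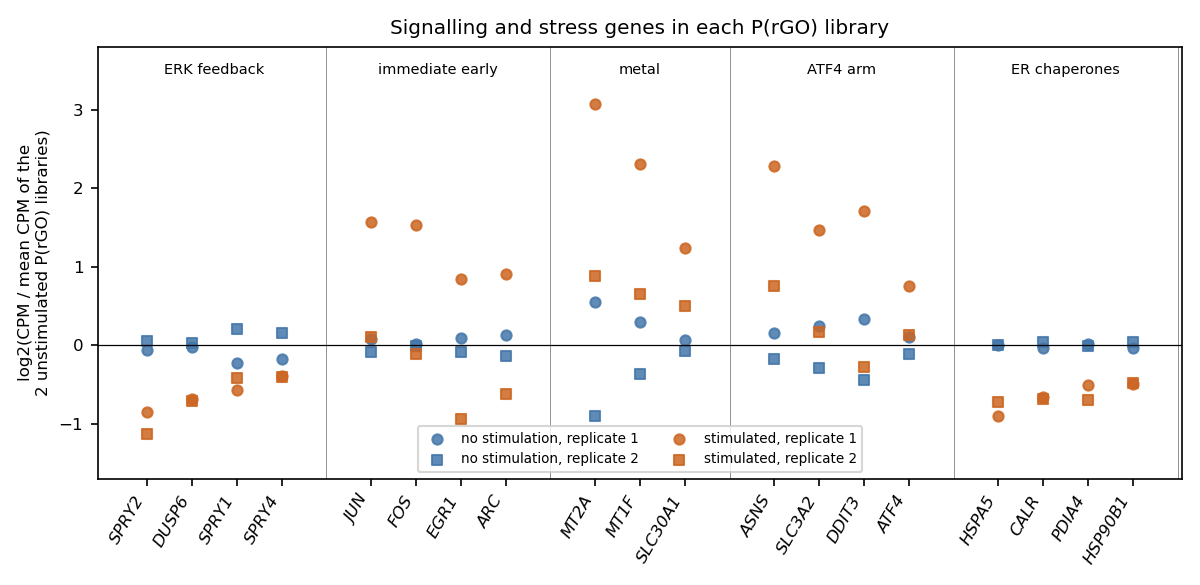
CPM of signalling and stress genes in each P(rGO) library, as log2 of the ratio to the mean of the 2 unstimulated libraries (y axis). Blue points are unstimulated and orange stimulated libraries, circles replicate 1 and squares replicate 2. The metal and ATF4 genes and the immediate early genes are highest in stimulated replicate 1, and the ER chaperones and SPRY2 and DUSP6 are low in both stimulated libraries.

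Neuropeptide genes lay lower with stimulation. Of 18 tested genes for granins, prohormone processing and neuropeptides, 15 were below 0 and in 8 both stimulated libraries were the lower (44.4%, beside 20.4% of all genes). The median was -0.22, and -0.46 without stimulated replicate 1. GAL, the neuropeptide galanin (chromosome 11 from 68683779 to 68691175), stood at 383 and 386 CPM without stimulation and at 230 and 101 CPM with it (log2 fold change -1.21, SE 0.35, edgeR adjusted p = 0.728). VIP, vasoactive intestinal peptide, stood at 95.6 and 99.0 CPM against 50.5 and 38.2 CPM (log2 fold change -1.13, SE 0.37). NPY, neuropeptide Y, stood at 63.8 and 38.8 CPM against 34.1 and 9.25 CPM (log2 fold change -1.24, SE 0.47). All 3 were lowest in stimulated replicate 2. PAM, the enzyme that amidates peptides, stood at 115 and 113 CPM against 88.6 and 80.4 CPM (log2 fold change -0.43, SE 0.12), while the granin VGF spanned the unstimulated values, with 6085 and 5035 CPM against 7574 and 2856 CPM.

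Neurite and growth cone genes lay lower in part. Of 40 tested, 31 were below 0 and in 19 both stimulated libraries were the lower (47.5%, beside 20.4% of all genes), with a median of -0.12. GAP43, the protein of growing axon tips, stood at 351 and 311 CPM without stimulation and at 238 and 139 CPM with it (log2 fold change -0.81, SE 0.24). CAP2, which recycles actin monomers, stood at 25.6 and 23.7 CPM against 18.3 and 15.5 CPM (log2 fold change -0.55, SE 0.18). The young neuron markers STMN2 and DCX showed no such difference. STMN2 stood at 2012 and 2088 CPM against 1963 and 2178 CPM, and DCX at 449 and 555 CPM against 471 and 631 CPM, with overlapping groups. The neuroblastoma identity marker ELAVL4 stood lower, at 1215 and 1378 CPM against 922 and 1121 CPM (log2 fold change -0.34, SE 0.26). In axon guidance, 24 of 41 genes were below 0 and the median was -0.05 (0.13 without stimulated replicate 2), so the low values of SEMA3C, SLIT2 and SEMA3A (6.47 and 5.73 CPM against 2.77 and 0.903 CPM) were not shared by the list.

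Genes of excitability and transmitter identity were little different as groups. The median log2 fold change was -0.02 for 22 sodium and calcium channel genes, -0.08 for 31 potassium channel genes, -0.005 for 35 genes of synaptic vesicles and -0.04 for 24 catecholamine genes. Without 1 of the 4 libraries these medians ran from -0.10 to 0.09, from -0.20 to -0.05, from -0.06 to 0.06 and from -0.12 to -0.01. SCN9A, the sodium channel Nav1.7, stood at 133 and 156 CPM against 140 and 126 CPM. Lower values were seen for the sodium channel subunit SCN4B (8.99 and 5.79 CPM against 4.39 and 3.88 CPM) and the potassium channel subunit KCNAB1 (2.92 and 5.61 CPM against 1.10 and 0.850 CPM). DBH, which makes noradrenaline from dopamine, stood at 487 and 505 CPM without stimulation and at 327 and 322 CPM with it (log2 fold change -0.61, SE 0.26). PHOX2A, a factor of noradrenergic identity, stood at 585 and 587 CPM against 519 and 401 CPM, and MAOB, which degrades amines, at 126 and 132 CPM against 101 and 73.9 CPM. SYP, the vesicle protein synaptophysin, overlapped between groups at 292 and 254 CPM against 328 and 249 CPM.

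Retinoic acid targets gave a median of -0.15 over 17 genes, 12 of them below 0, and of -0.005 without stimulated replicate 1. CYP26A1, which degrades retinoic acid, stood at 91.0 and 51.7 CPM without stimulation and at 39.6 and 50.0 CPM with it (log2 fold change -0.67, SE 0.73). The related CYP26B1 overlapped between groups, at 1230 and 1415 CPM against 603 and 1501 CPM, low in stimulated replicate 1 alone. RARB, the receptor gene that retinoic acid switches on, stood at 101 and 104 CPM against 86.9 and 110 CPM. Of the remaining genes named whatever their value, CDKN1C, EPAS1 and MYCN overlapped between groups, and KIT was 0.458 and 0.521 CPM against 0.732 and 1.97 CPM.

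Cholesterol synthesis genes lay lower and ribosomal protein genes higher. Of 24 cholesterol genes, 22 were below 0 and in 14 both stimulated libraries were the lower (58.3%, beside 20.4% of all genes). The median was -0.32, and it was -0.51 without stimulated replicate 1 and -0.20 without replicate 2. HMGCS1, the synthase of the mevalonate pathway, stood at 447 and 455 CPM without stimulation and at 334 and 247 CPM with it (log2 fold change -0.63, SE 0.19, edgeR adjusted p = 0.728). ACAT2, which supplies acetoacetyl-CoA, stood at 203 and 209 CPM against 151 and 116 CPM (log2 fold change -0.63, SE 0.20), and NSDHL, a sterol dehydrogenase, at 68.5 and 63.4 CPM against 47.4 and 37.7 CPM (log2 fold change -0.63, SE 0.21). These 3 were lowest in stimulated replicate 2.

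Of 37 ribosomal protein genes, 36 were above 0 and in 28 both stimulated libraries were the higher (75.7%, beside 18.1% of all genes). The median was 0.26, and 1 gene had an unadjusted p under 0.05 by edgeR. RPS3 stood at 609 and 519 CPM against 864 and 693 CPM (log2 fold change 0.46, SE 0.22), and RPL18 at 408 and 346 CPM against 560 and 471 CPM (log2 fold change 0.45, SE 0.22). Ribosomal protein genes have many pseudogenes and their counts are uncertain. Nuclear genes of oxidative phosphorylation were below 0 for 29 of 37 (median -0.17), among them COX6A1 of complex IV (30.8 and 28.2 CPM against 18.6 and 22.6 CPM) and NDUFA1 of complex I (41.8 and 43.2 CPM against 32.8 and 33.8 CPM).

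Matrix genes were divided. Of 52 tested, 33 were below 0. In 14 both stimulated libraries were the lower (26.9%, beside 20.4% of all genes), and in 2 the higher (3.85%, beside 18.1%). The median was -0.10. That median was 0.12 without stimulated replicate 2 and -0.33 without replicate 1. LUM, the proteoglycan lumican, stood at 28.5 and 25.3 CPM without stimulation and at 14.3 and 7.17 CPM with it (log2 fold change -1.32, SE 0.33, edgeR adjusted p = 0.667). VCAN, the proteoglycan versican, stood at 277 and 543 CPM against 116 and 189 CPM (log2 fold change -1.43, SE 0.49), and the unstimulated libraries themselves were far apart. LAMA4, a laminin chain, stood at 45.3 and 37.7 CPM against 23.2 and 22.1 CPM (log2 fold change -0.88, SE 0.27), FN1, fibronectin, at 17.2 and 15.97 CPM against 11.03 and 9.67 CPM, and COL6A3, a collagen VI chain, at 2.35 and 4.63 CPM against 0.836 and 0.638 CPM.

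Some of these genes are also typical of fibroblasts, so markers of other cell types were counted. Of 13 fibroblast markers 11 were tested, 8 below 0 and 5 with both stimulated libraries lower (45.5%, beside 20.4% of all genes), and the summed level of the 11 was 346 to 395 CPM without stimulation and 280 to 346 CPM with it. ACTA2, smooth muscle actin, stood at 12.5 and 7.58 CPM against 4.65 and 4.41 CPM, and FBLN1, fibulin 1, at 139 and 115 CPM against 107 and 79.5 CPM. The fibroblast marker POSTN was at 0 counts in all 16 libraries, as were LDHA and FBL, so its zeros cannot be read as absence. COL1A2 had 1 to 3 counts in the 4 P(rGO) libraries. Of 13 Schwann and glial markers 4 had enough counts to be tested, and these summed to 15.2 to 16.2 CPM without and 15.9 to 18.5 CPM with stimulation. SOX10, like POSTN, was at 0 counts in all 16 libraries. The 1 immune marker tested of 8, CD14, lay at 1.16 to 1.43 CPM without and 1.91 to 3.35 CPM with stimulation. The 2 endothelial markers tested of 7, VWF and CLDN5, summed to 1.26 to 2.14 and 1.67 to 1.97 CPM. In both of these lists most markers had 10 counts or fewer over the 4 libraries. The part of other cell types in the results was not tested.

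The stimulation effect on P(rGO) was compared with that on the other films in the same model. The difference to the mean effect on PEDOT:PSS and ITO was called for 0 of 18081 genes (0%), the difference to PEDOT:PSS for 0 (0%) and the difference to ITO for 0 (0%) by edgeR, and the smallest adjusted p was 1 in each. At an unadjusted p under 0.05 there were 242, 203 and 252 genes, and DESeq2 called 0 in each. Without the low-count filter edgeR called 10, 3 and 15 genes. On the other films stimulation itself gave 0 called genes. At an unadjusted p under 0.05 there were 126 genes on PEDOT:PSS, 293 on ITO and 986 on P(rGO). The P(rGO) count is near the share of 0.05 expected where nothing differs, and those on PEDOT:PSS and ITO lie below it. The counts thus do not show a stronger response on P(rGO). With the filter no gene was shown to respond differently on P(rGO).

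Beside its median of -0.81 here, the mitosis list had -0.50 on PEDOT:PSS, where 43 of 43 genes were below 0, and 0.05 on ITO, where 15 were. The difference between P(rGO) and the mean of the other films was below 0 for 43 of the 43 genes, with a median of -0.60, and 2 had an unadjusted p under 0.05. Unstimulated levels were not alike on the films: the list summed to 1228 and 1270 CPM with P(rGO), 2231 and 1813 CPM with PEDOT:PSS and 1524 and 1561 CPM with ITO. MKI67 had log2 fold changes of -0.50 (SE 0.35) on PEDOT:PSS and -0.09 (SE 0.34) on ITO, beside -1.27 on P(rGO). The ITO values average 2 opposed stimulated replicates: with stimulation the list summed to 1090 CPM in replicate 1 and 2093 CPM in replicate 2. MKI67 on ITO stood at 123 and 122 CPM without stimulation and at 63.3 and 167 CPM with it. The ribosomal protein median of 0.26 stood beside -0.05 on PEDOT:PSS and 0.18 on ITO. Cholesterol genes were below 0 on all films in the median, at -0.32, -0.19 and -0.34.

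For single genes the films are given side by side. GAL had log2 fold changes of 0.02 (SE 0.35) on PEDOT:PSS and -0.07 (SE 0.35) on ITO, and its difference between P(rGO) and their mean was -1.19 (SE 0.43, unadjusted p = 0.0152, edgeR adjusted p = 1). ENC1 was below 0 on PEDOT:PSS (-0.45, SE 0.34) and on ITO (-0.80, SE 0.35), with a difference of -1.66 (SE 0.42, unadjusted p = 0.00148). CTSF had 0.11 (SE 0.16) on PEDOT:PSS and 0.39 (SE 0.16) on ITO, with a difference of 0.67 (SE 0.20, unadjusted p = 0.0048). For SLC30A1 and MT2A the differences were 0.36 (SE 0.32) and 0.42 (SE 1.05), within their errors. Across 11591 genes with at least 5 CPM in a group, log2 fold changes on P(rGO) and PEDOT:PSS correlated with r = 0.502 (rho 0.438), those on P(rGO) and ITO with 0.451 (rho 0.418), and those on PEDOT:PSS and ITO with 0.171 (rho 0.071). Genes are not independent replicates, and the replicates of all films share the prefixes NB33 and NB34, so these coefficients describe the libraries only.

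**Figure D5:**
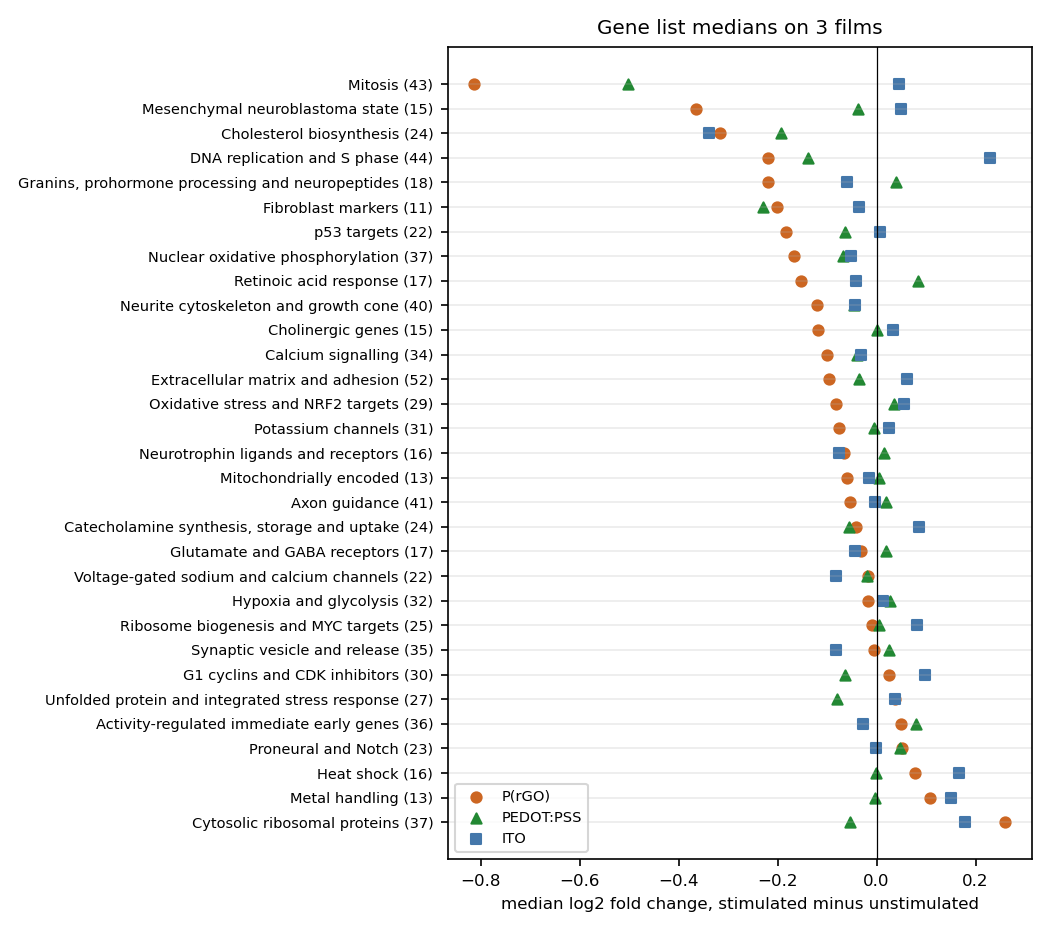
Median log2 fold change of each gene list with stimulation (x axis) on P(rGO) (orange circles), PEDOT:PSS (green triangles) and ITO (blue squares), with the number of tested genes in parentheses. The mitosis list has the lowest median on P(rGO), -0.81, and the ribosomal proteins the highest of the 31 lists drawn, 0.26.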

How the data were processed

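Polyadenylated RNA was made into directional libraries, per the labels' protocols. The authors' deposited table gives raw read counts for each gene and library, in the layout of HTSeq per the file headers. STAR, HTSeq, GRCh38.p13 and hg38 are named in the submitters' processing notes. Whether counting used strand is not stated in these sources, so overlapping and antisense genes may share reads. Of 69222 gene rows 32387 were at 0 in every library, and 5 summary rows were kept out of library sizes (reads in no gene, 7.28% to 10.0% of uniquely placed reads in the P(rGO) libraries).

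Genes passing edgeR's expression filter over 8 groups (18081) were scaled by TMM and fitted in edgeR 4.0.16 (R 4.3.3) with 1 mean per group and robust quasi-likelihood over 16 libraries, which leaves 8 residual degrees of freedom. All groups share the estimate of spread because each has 2 libraries. Calls used a Benjamini-Hochberg adjusted p of 0.05, a standard error is the log2 fold change over the root of F, and CPM use scaled library sizes. The script was tested on simulated data.

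Named genes were, per direction, the 10 smallest p-values with at least 5 CPM in a group, groups that do not overlap and a coding-type symbol, then the 3 smallest p-values of each of 34 gene lists, and a fixed set of marker genes. Not all 140 such genes are described, and 1 of the 10 higher genes is not reported here. Other list members (such as KIF20A, ASNS, SLC3A2, ATF4, HSP90B1, NPY, SEMA3A, VCAN, SPRY1, SPRY4) and the division of 2 lists by role were chosen after values were seen. The members and lists were chosen with earlier results of these data known. Alternatives were DESeq2 1.42.0, scaling by relative log expression, a fit to all genes with any count, the replicate number as a block, other sets of libraries, and leaving out each replicate. Promoter windows came from RefSeq (GRCh38.p14) and gene positions from GENCODE 29. Precision is limited by 2 libraries per group: the median standard error was 0.255 on the log2 scale.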

Additional observations from a re-analysis of the deposited data

Results flagged for a closer look

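Reads that were placed uniquely but in no annotated gene are outside the gene comparison. They made up 9.48% ± 0.75 (SD, n = 2) of uniquely placed reads in the stimulated P(rGO) libraries and 7.54% ± 0.37 (SD, n = 2) in the unstimulated, and were examined because both stimulated libraries lay above both controls. On PEDOT:PSS the means were 7.72% with and 7.17% without stimulation, and on ITO 7.97% and 7.84%. Where these reads lie in the genome was not analysed here.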

How the results depend on the processing

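The count of called genes on P(rGO), 0, was also 0 with relative log expression scaling, with the 4 P(rGO) libraries alone and without any 1 of their libraries (0 to 0). It was 168 without the low-count filter (119 lower, 49 higher), 14 with DESeq2, 2 with the 12 film libraries alone and 1, CTSF, without the untreated group. With the replicate number as a replicate block it was 0, and 883 when the 4 P(rGO) libraries were fitted alone with that replicate block. Replicate deviations of the 2 groups correlated at 0.276, and all correlations among film groups were above 0, from 0.066 to 0.294. On the first principal component replicate 1 lay below replicate 2 in every film group. The replicate number thus went with a difference shared across films, but the labels do not say what it marks. With only 2 pairs in this comparison, it was not used in the fit reported above. Without the filter, 10 genes were called for the difference to the mean of the other films, 3 for that to PEDOT:PSS and 15 for that to ITO. The cause was not tested. Of 102 genes followed through the alternatives, 85 kept the sign of their log2 fold change under all 12 alternatives. Without 1 library the values ran from -0.068 to 0.11 for CCND1, -0.13 to 0.29 for CDKN1B, -0.12 to 1.53 for FOS, -0.94 to 0.85 for EGR1, -0.62 to 0.90 for ARC, -0.49 to 0.30 for NTRK2, -0.28 to 1.70 for DDIT3, -0.96 to 0.45 for VGF, -0.063 to 0.088 for STMN2, -0.094 to 0.33 for DCX, -1.25 to 2.35 for TH, -1.13 to 0.18 for CYP26B1, -0.24 to 0.10 for RARB, -0.39 to 0.17 for NQO1, -0.13 to 0.27 for SYP, -0.97 to 0.88 for BDNF and -0.32 to 0.26 for MYCN. Other sign changes were at values near 0: EGR1 at -0.027 with the 4 libraries and the replicate block and MYCN at 0.00118 with relative log expression scaling and with DESeq2, 0.0064 with the replicate block and with the 4 libraries alone, 0.017 with the film libraries alone and 0.0136 without the untreated group.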

Other observations

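Long non-coding genes had another balance than coding genes on P(rGO). Of 2479 tested long non-coding genes, 27.1% had both stimulated libraries above both unstimulated ones and 13.5% had both below, with a median log2 fold change of 0.118. For 13058 protein-coding genes these shares were 16.3% and 22.2%, with a median of -0.013, and for 1403 pseudogenes 12.8% and 23.4%, with a median of -0.125. The median of the long non-coding genes was 0.045 on PEDOT:PSS and 0.047 on ITO. The share of reads in no gene was also higher in the stimulated P(rGO) libraries, and its part in these values was not tested.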
